A study of Mus musculus with 160 samples.

Results

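The striatum and the cortex of wild-type (WT) mice were set against each other in 20 of the 160 libraries of this series. They were 10 striatum and 10 cortex libraries of WT mice that had received vehicle, chosen by the tissue, genotype and treatment in the sample labels. The mice were C57BL/6J, 12 weeks old, with 5 females and 5 males per group. They had taken 1 oral dose of vehicle (hydroxypropyl-beta-cyclodextrin in citrate buffer), and tissue was collected 6 h later. The library names place each specimen on the left side. Further libraries of the same regions served for comparison. These were 20 libraries from WT mice dosed with CHDI-00340246 at 10 mg/kg, a compound that blocks kynurenine monooxygenase (Kmo), and 20 of R6/2 mice given vehicle. R6/2 mice carry the first exon of human huntingtin with an expanded CAG repeat under the human gene's promoter and are a model of Huntington's disease.

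The striatum is the input nucleus of the basal ganglia. Most of its neurons are GABAergic spiny projection neurons, which integrate glutamate from cortex and thalamus with dopamine from the midbrain. Direct pathway cells carry the D1 dopamine receptor with substance P and dynorphin, and indirect pathway cells carry the D2 receptor with the adenosine receptor Adora2a and enkephalin. The cortex is built mainly of layered glutamatergic projection neurons with a minority of GABAergic interneurons, and some of those projection neurons send their axons to the striatum.

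The values are estimated counts per gene, shown here as CPM, counts scaled to the size of the library after TMM normalization. Library totals ran from 30192630 to 41361011 estimated counts in striatum and from 32462591 to 44245095 in cortex. After a filter on low counts, 17193 genes were tested with edgeR's quasi-likelihood test, and a gene was called at a Benjamini-Hochberg adjusted p under 0.05. The sex given in the labels fitted the counts of Xist and Ddx3y in each of the 20 libraries. Because these are bulk tissue samples, fewer cells of a type and less RNA per cell cannot be told apart.

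Striatum and cortex specimens form 10 pairs by their numbers, and a pair is named here by its striatum specimen. In the cortex group 3 libraries stood apart, those of pairs 24, 28 and 32. Drd2, the D2 dopamine receptor, had 3.59, 9.56 and 8.22 CPM in these cortex libraries and 0.541 to 1.43 CPM in the other 7. Chat, the acetylcholine-synthesizing enzyme of cholinergic neurons, had 0.786, 4.87 and 4.41 CPM in them, against 0.202 to 0.275 CPM in the other 7. The summed level of the 24 genes of cortical glutamatergic neurons was 6137 to 6747 CPM in them and 6392 to 7482 CPM in the other 7. The summed level of 35 spiny neuron genes was 4159 to 4926 CPM in these 3 libraries and 3297 to 4070 CPM in the other 7, while it was 21233 to 24552 CPM in striatum. The part of these libraries in the results was not tested beyond leaving them out, and values without them stand beside only some of the genes they move. Others, such as Pde10a and Gng7, are given with all 10 cortex libraries. Pde10a had 97.7 to 186.2 CPM in these 3 and 44.1 to 87.4 CPM in the other 7. Gng7 had 115.9 to 194.03 CPM and 70.4 to 89.4 CPM.

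**Figure D1:**
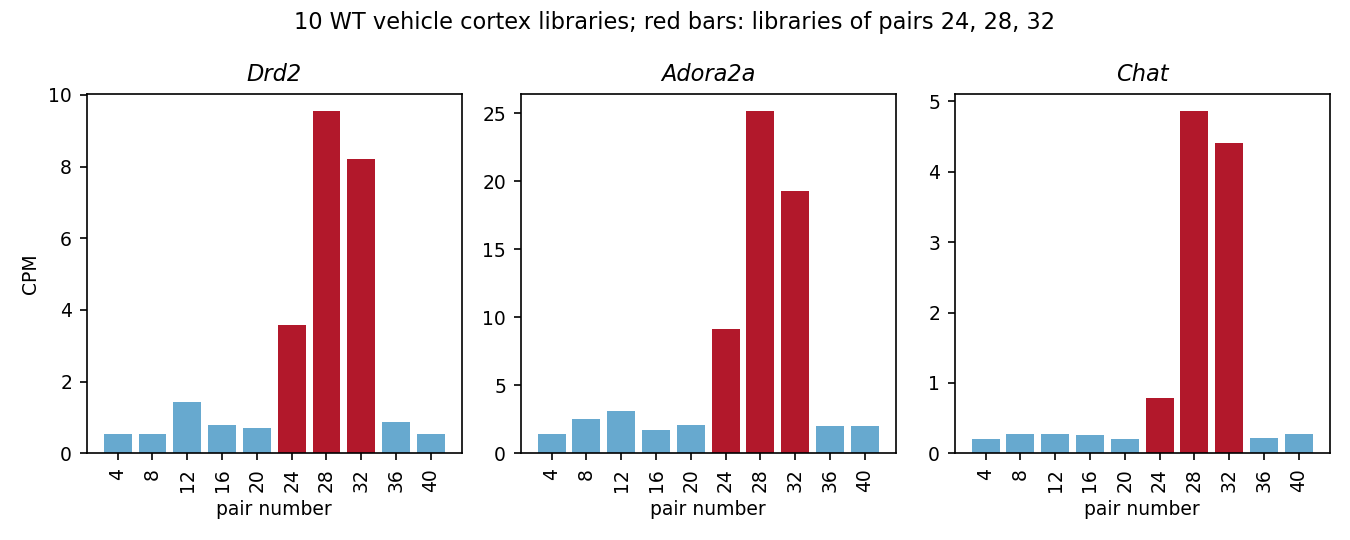
Levels in CPM (linear axis) of 3 genes in each of the 10 WT vehicle cortex libraries, by pair number; red bars mark pairs 24, 28 and 32. Drd2 reached 9.56 CPM and Chat 4.87 CPM in pair 28, above the 1.43 and 0.275 CPM that were the most in the other 7 libraries, and Adora2a was highest in the same 3 libraries.

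Striatum and cortex differed in most of the genes tested. Of 17193 genes, 5727 were higher and 5453 lower in striatum, so that 65% were called, 33.3% as higher and 31.7% as lower. The limit of 2-fold was passed by 14.2% of genes, 1102 of them higher (6.41%) and 1335 lower (7.76%). In 27.4% of genes the striatum range and the cortex range did not overlap. Counts of list members below are to be read against these shares of all genes. A list near 33.3% higher and 31.7% lower has shares like those of genes at large. No list was tested against these shares. The median log2 fold change over all genes tested was 0.03. Genes more than 2-fold higher took 8.13% of the counts of the median striatum library (7.91 to 8.45%), against 2.48% in cortex (2.26 to 2.94%). Genes more than 2-fold lower took 2.47% in striatum (2.22 to 2.58%) and 7.49% in cortex (7.05 to 8.01%). Without the 3 cortex libraries that stood apart, 5483 genes were higher and 5241 lower, and 2339 of the 2437 genes past 2-fold stayed past it in the same direction.

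**Figure D2:**
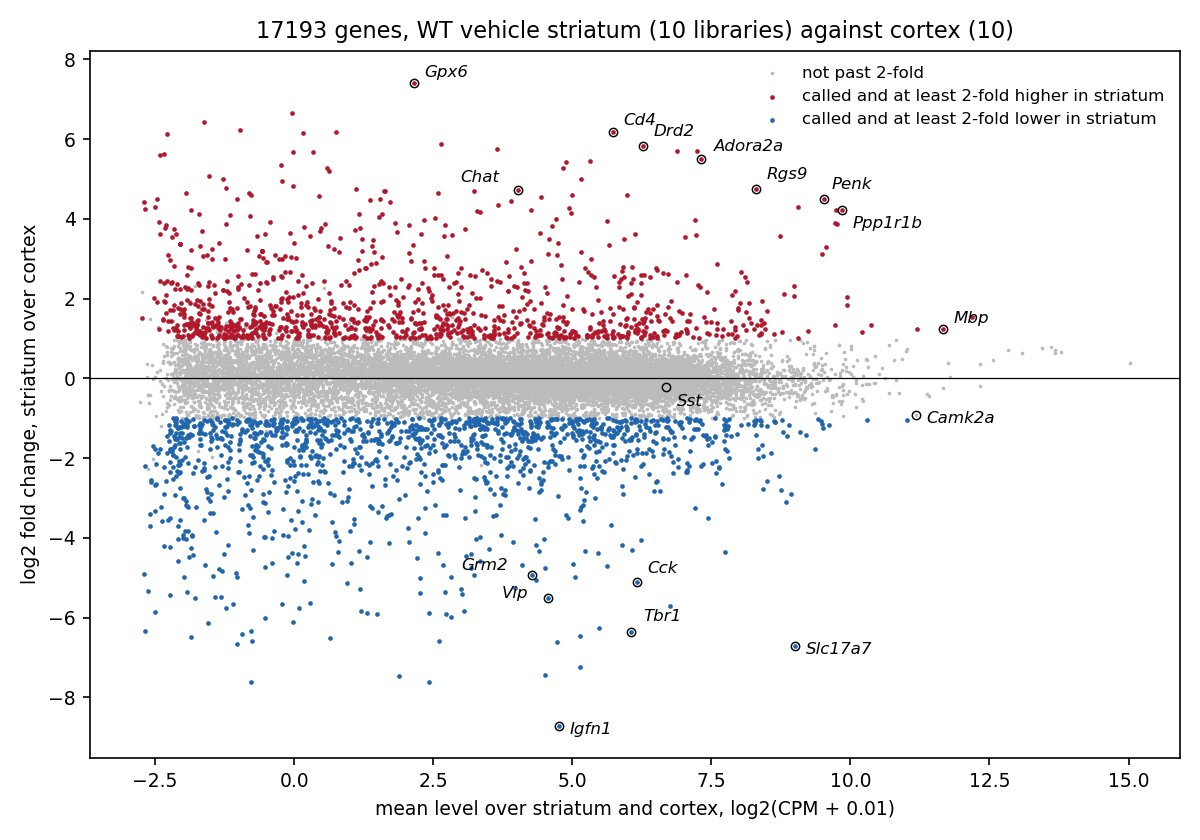
Log2 fold change of striatum over cortex (vertical axis) against mean level over both regions, log2(CPM + 0.01) (horizontal axis), for the 17193 genes tested. Red points are the 1102 genes called and at least 2-fold higher in striatum, blue points the 1335 called and at least 2-fold lower. Circled genes are described in the text.

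The largest differences toward striatum held receptors, enzymes and 2 genes best known from immune cells. Gpx6, a glutathione peroxidase, had 5.03, 8.98 and 16 CPM (lowest, median and highest of 10 libraries) in striatum, against 0.0, 0.0264 and 0.175 CPM in cortex. Its log2 fold change was 7.41 ± 0.26 (SE; edgeR adjusted p = 5.5e-16), and 8.06 without the 3 cortex libraries. The ranges of the 2 regions lay far apart. Cd4, the coreceptor of helper T cells, had 95.6, 102.2 and 125.2 CPM in striatum and 0.595, 0.954 and 3.64 CPM in cortex, a log2 fold change of 6.19 ± 0.27, and 6.95 without the 3. Ptpn7, a tyrosine phosphatase described in blood cells, had a median of 12.2 CPM in striatum and 0.0707 CPM in cortex, with a log2 fold change of 5.88 and of 7.70 without the 3. Ido1, which opens the tryptophan ring as the first step of the kynurenine pathway, had 19.7, 24.7 and 32.5 CPM in striatum, against 0.209, 0.347 and 0.921 CPM in cortex (5.76 ± 0.20, edgeR adjusted p = 1.6e-15). None of these 4 genes overlapped between regions. The further genes among the 12 largest were Drd2, Adora2a, Wnt8b (a Wnt ligand), Ankk1 (a kinase gene), Lrrc10b, Syndig1l, Sh3rf2 and Serpina9 (a serine protease inhibitor), with log2 fold changes of 5.42 to 6.66. Without the 3 cortex libraries Ankk1 had 7.58, Lrrc10b 7.02, Syndig1l 6.52, Sh3rf2 6.69 and Serpina9 7.70 on this scale.

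The largest differences toward cortex included 5 listed genes of cortical glutamatergic neurons: Slc17a7, Neurod2, Neurod6, Tbr1 and Slc30a3. Igfn1, an immunoglobulin-like and fibronectin-like protein, had 0.0, 0.0879 and 0.376 CPM in striatum and 37.8, 54 and 76.1 CPM in cortex (-8.71 ± 0.22, edgeR adjusted p = 1.78e-17). Slc17a7, the vesicular glutamate transporter VGLUT1, had 5.63, 8.64 and 22.1 CPM in striatum and 867, 1044 and 1231 CPM in cortex (-6.71 ± 0.14). In both genes the highest striatum library was far below the lowest cortex library. Striatal reads were nearly lacking for Prss16, a serine protease, and Xirp2, an actin-binding protein. Prss16 had 1 count over all 10 striatum libraries and 426 over all cortex libraries, a cortex over striatum ratio of 403 with an exact 95% interval of 71.9 to 15947. Xirp2 had 4 counts in striatum and 422 in cortex, a ratio of 99.8 with an interval of 38.7 to 368. These intervals cover counting error only. Ovol2, Neurod2, Rtn4rl2, Ntn5, Neurod6, Tbr1 and Slc30a3 were also among the 12, with log2 fold changes of -7.46 to -6.27.

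Genes shared by both kinds of spiny neuron were higher in striatum without exception. All 35 listed genes were tested and called higher, 33 of them past 2-fold, with a median log2 fold change of 2.60. Without the 3 cortex libraries the list median was 3.43. Of the 35, 34 did not overlap between regions. Ppp1r1b encodes DARPP-32, the dopamine-regulated phosphatase inhibitor of spiny neurons. It had 1566, 1729 and 2102 CPM in striatum and 55.5, 77.5 and 192.9 CPM in cortex (4.23 ± 0.23, edgeR adjusted p = 2.11e-11). The highest cortex value was that of pair 28. Per gene length, Ppp1r1b averaged 1176 FPKM in striatum, the highest level in the list, and 66 FPKM in cortex.

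The other spiny neuron genes covered signalling enzymes, channels and transcription factors. Scn4b, a sodium channel beta subunit, had 1465, 1615 and 1844 CPM in striatum against 66.6, 117.3 and 172.4 CPM in cortex (3.86 ± 0.19). Rasd2 encodes Rhes, a small GTPase that binds mutant huntingtin, and it had a median of 775 CPM in striatum and 63.4 CPM in cortex (3.58 ± 0.11). Foxp1 and Bcl11b, transcription factors of spiny neuron development that cortical neurons also use, had smaller differences of 1.74 ± 0.05 and 2.29 ± 0.12. The smallest p in the list belonged to Kcnab1, a potassium channel beta subunit, with 430 to 509 CPM in striatum and 77.5 to 99.4 CPM in cortex (2.42 ± 0.05, edgeR adjusted p = 3.16e-20). Itpr1, the inositol trisphosphate receptor, and Rgs4 were the 2 members under 2-fold, at 0.66 and 0.75. Abhd11os is transcribed opposite Abhd11, and because the strand setting of the counting is not given in the sources used here, its value (4.01) may include reads of its partner.

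**Figure D3:**
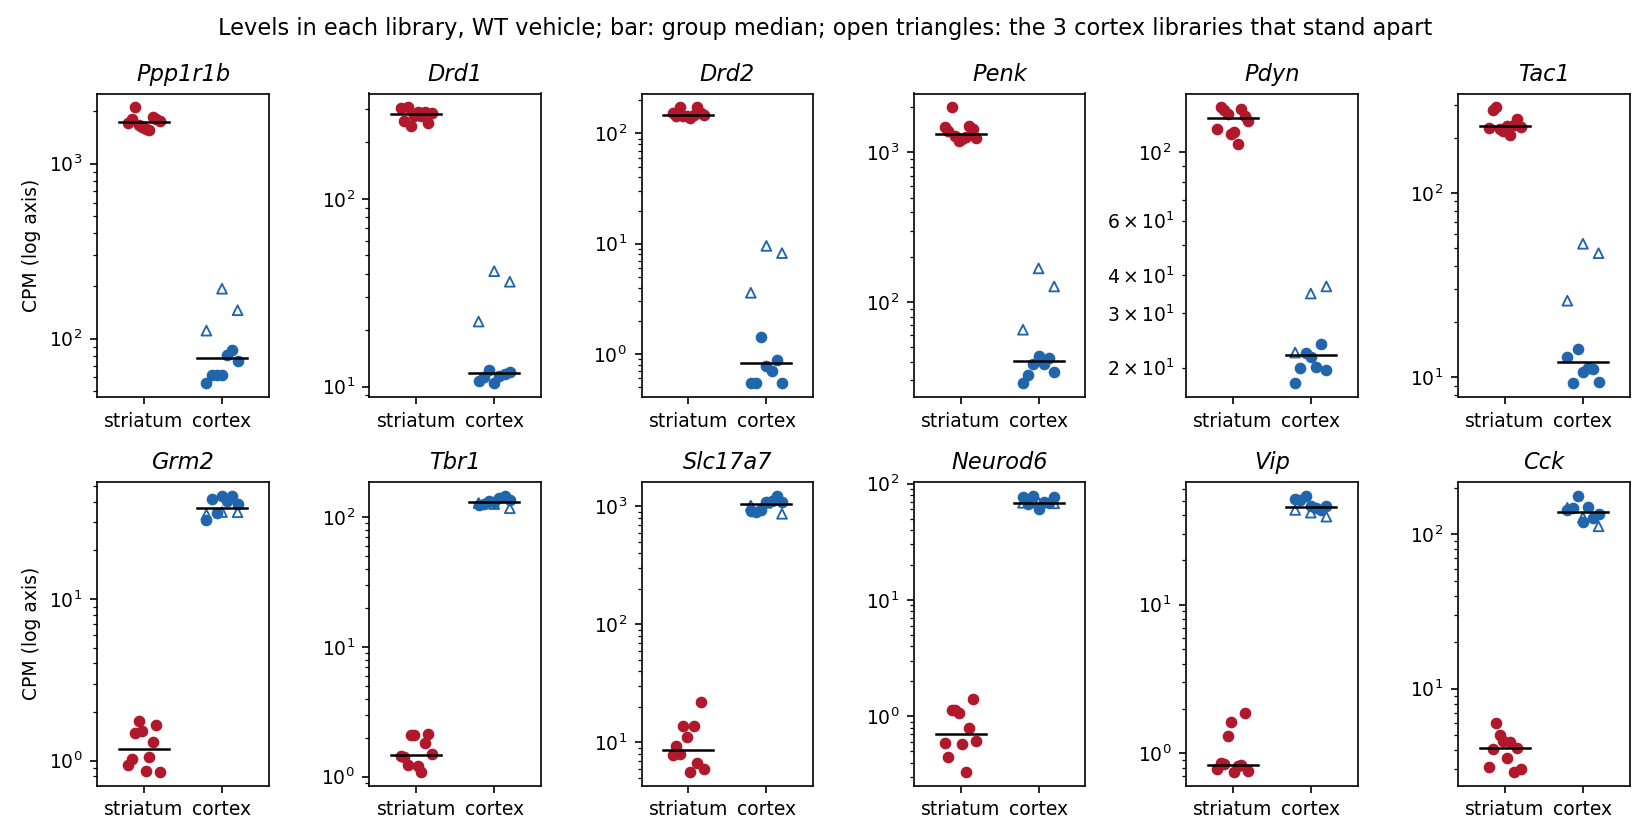
Levels in CPM (log axis) in each of the 10 striatum libraries (red, left) and 10 cortex libraries (blue, right) of WT vehicle mice for 12 genes; bars are group medians and open triangles the 3 cortex libraries that stand apart. The triangles are the highest cortex values of Ppp1r1b, Drd1, Drd2 and Tac1, and the 2 regions do not overlap in any of the 12 genes.

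Direct pathway genes were mostly higher in striatum, 10 of 12, with 2 lower and a median log2 fold change of 2.41. Drd1, the D1 dopamine receptor, had 245, 282 and 308 CPM in striatum and 10.4, 11.8 and 41.2 CPM in cortex (3.96 ± 0.29, edgeR adjusted p = 1.62e-09). Without the 3 cortex libraries its log2 fold change was 4.61. Tac1, the substance P precursor, had 205.5, 230.4 and 291.9 CPM in striatum and 9.25, 12 and 53 CPM in cortex (3.55 ± 0.36, and 4.40 without the 3). Pdyn, the dynorphin precursor, had a smaller difference, with 105.97, 128.6 and 139.7 CPM in striatum and 17.8, 22 and 36.7 CPM in cortex (2.39 ± 0.13). These 3 genes had no overlap between regions. Isl1, a transcription factor of direct pathway and cholinergic cells, had 16.7, 18.8 and 19.9 CPM in striatum and 0.027, 0.130 and 4.17 CPM in cortex. Its log2 fold change of 4.19 became 7.31 without the 3 cortex libraries. The lower members were Lingo2 (-0.89), a leucine-rich repeat membrane protein, and Eya1 (-0.20), a transcriptional coactivator.

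Indirect pathway genes had the larger median difference, 3.50 over 9 genes tested, of which 7 were higher, 1 was lower and 1 was not called. Drd2 had 137.4, 147.03 and 172.8 CPM in striatum and 0.541, 0.832 and 9.56 CPM in cortex (5.82 ± 0.52, edgeR adjusted p = 2.36e-08; 7.58 without the 3 cortex libraries). Adora2a, the stimulatory adenosine receptor, had 259, 309 and 370.2 CPM in striatum, against 1.41, 2.33 and 25.2 CPM in cortex (5.50 ± 0.58, and 7.18 without the 3). Penk, the enkephalin precursor, had 1191, 1339 and 2005 CPM in striatum and 28.6, 40.7 and 167.9 CPM in cortex (4.50 ± 0.36, and 5.26 without the 3). None of the 3 overlapped, and the highest striatum value of Penk came from specimen 12. Gpr6, an orphan receptor of these cells, had a log2 fold change of 4.99 ± 0.34, and 5.86 without the 3. Plxdc1 was lower (-0.49), and Grik3, a kainate receptor subunit, was not called (0.06). Gpr52 was not analysed here. Per length, Penk averaged 1030 FPKM in striatum and Tac1 229 FPKM, while the receptors Adora2a, Drd2 and Drd1 averaged 119.8, 95.5 and 77.2 FPKM.

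**Figure D4:**
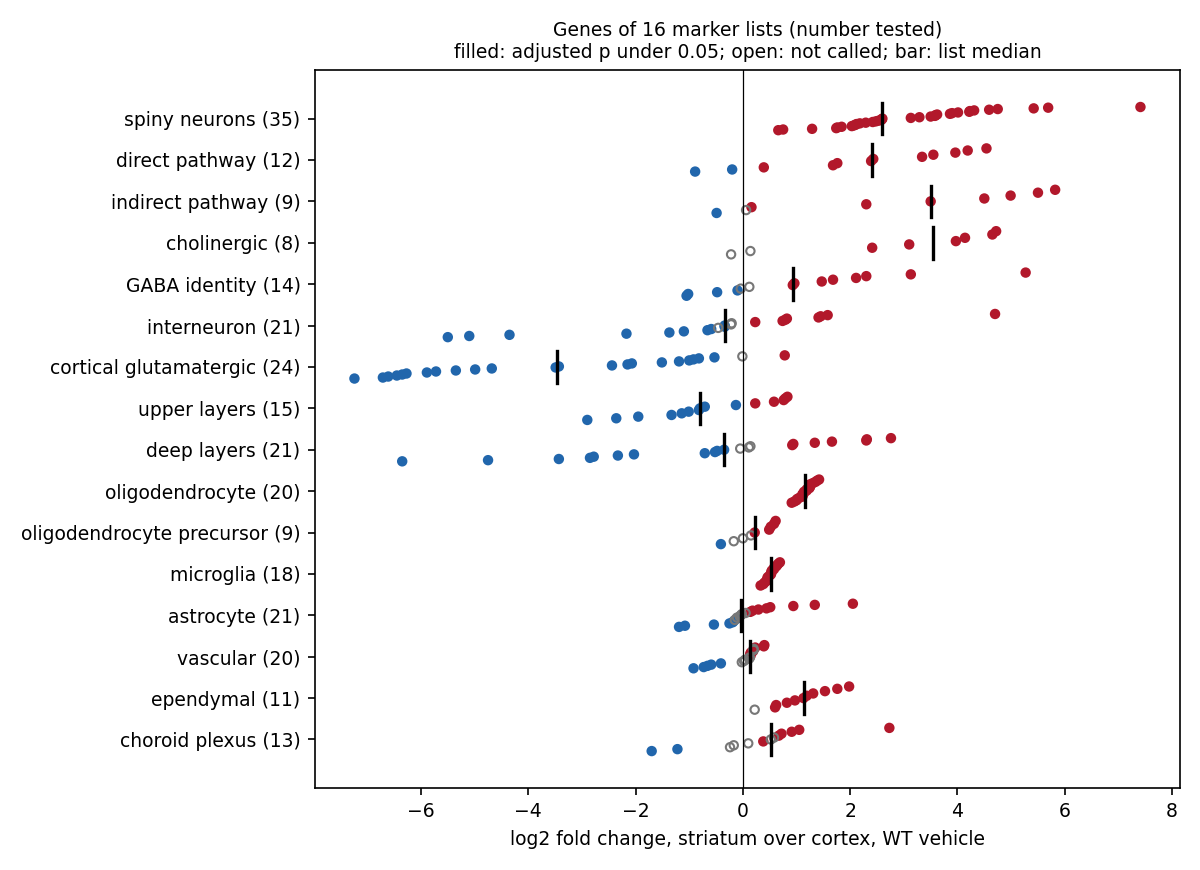
Log2 fold change of striatum over cortex (horizontal axis) of each tested gene of 16 marker lists, WT vehicle; filled points passed an adjusted p of 0.05, open points did not, and black bars are list medians. Spiny neuron and oligodendrocyte genes lie to the right of 0 in full, and 22 of 24 cortical glutamatergic genes were called lower.

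The machinery that turns receptor signals into cyclic AMP differed between the regions by isoform. Of 28 genes for adenylyl cyclases, G protein subunits and protein kinase A, 7 were higher and 15 lower, with a median of -0.23. Adcy5, the main adenylyl cyclase of spiny neurons, had 1190, 1284 and 1434 CPM in striatum and 94, 132.4 and 240.6 CPM in cortex (3.13 ± 0.15, edgeR adjusted p = 1.11e-12). Adcy1, a calcium-stimulated cyclase, had 159.5, 316.8 and 345.0 CPM in striatum and 812.5, 1044 and 1153 CPM in cortex (-1.78 ± 0.10). Neither gene overlapped between regions. Adcy2, Adcy6 and Adcy8 were lower as well, at -1.46, -1.48 and -1.96.

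The stimulatory alpha subunits Gnal and Gnas differed in opposite directions. Gnal encodes Golf alpha, which couples D1 and Adora2a receptors to the cyclase, and its median was 817 CPM in striatum and 196.1 CPM in cortex (2.07 ± 0.12). Gnas, encoding the widespread Gs alpha, had a median of 486 CPM in striatum and 1082 CPM in cortex (-1.16 ± 0.05). Per length, Gnas still averaged 285 FPKM in striatum against 153.4 FPKM for Gnal, and in cortex 666.5 FPKM against 38.2 FPKM. Among gamma subunits, Gng7, the partner of Golf, was higher (3.90 ± 0.20) and Gng2 lower (-2.11 ± 0.06). Gnb5, the beta subunit that pairs with Rgs9, was higher (1.43 ± 0.06), and Prkar1b, a regulatory subunit of protein kinase A, was lower (-1.34 ± 0.05).

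Phosphodiesterases, which break down cyclic nucleotides, had 10 higher and 7 lower of 19 tested, with a median of 0.24. Pde10a, the striatal phosphodiesterase, had 1381, 1644 and 1783 CPM in striatum and 44.1, 63.4 and 186.2 CPM in cortex (4.22 ± 0.27, edgeR adjusted p = 1.69e-10). Pde1b, which is activated by calmodulin, was the most abundant member per length, at 450 FPKM in striatum and 48.4 FPKM in cortex (3.29 ± 0.13). Its relative Pde1a was lower, with 28.7, 34.6 and 43.9 CPM in striatum and 163.6, 179.9 and 228.8 CPM in cortex (-2.38 ± 0.08). Pde7b was higher (2.60 ± 0.10) and Pde4a lower (-0.69 ± 0.04). Pde2a was not analysed here.

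Regulators of G protein signalling speed the return of G proteins to rest. Of 18 tested, 10 were higher and 7 lower. Rgs9 had 563.5, 619.4 and 678.3 CPM in striatum and 8.72, 12.4 and 61.6 CPM in cortex (4.75 ± 0.42, and 5.75 without the 3 cortex libraries). Rgs4 was the most abundant member in cortex per length, at 161 FPKM, and was higher still in striatum, at 257 FPKM (0.75 ± 0.06). Rgs8 and Rgs10 were also higher, at 1.42 and 1.07. Rgs6 and Rgs7, relatives of Rgs9, were lower, at -1.10 and -0.85. The sum over the family was 2194 to 2528 CPM in striatum and 996 to 1209 CPM in cortex.

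Receptors for dopamine, serotonin and noradrenaline divided into 11 higher and 12 lower of 24 tested, with a median of -0.29. All 4 dopamine receptors that could be tested were higher in striatum, including Drd3 (2.61, and 4.67 without the 3 cortex libraries) and Drd5 (1.38). Drd3 was low, at 0.629 to 1.36 CPM in striatum and 0.0 to 0.702 CPM in cortex, and its ranges overlapped. Among serotonin receptors, Htr1b had 58.4, 71 and 97.5 CPM in striatum and 6.98, 8.30 and 13.1 CPM in cortex (2.99 ± 0.13), and Htr1d was higher too (3.59 ± 0.36, and 4.47 without the 3). Htr1a, a closely related receptor, had 2.62, 3.01 and 4.28 CPM in striatum and 13.2, 18.5 and 23 CPM in cortex (-2.54 ± 0.09). Htr3a, a channel of cortical interneurons, was lower (-2.17 ± 0.11). Among noradrenaline receptors, Adra2c was higher (1.89 ± 0.09) and Adra1d lower (-3.17 ± 0.12).

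Acetylcholine, adenosine, opioid and cannabinoid receptors counted 8 higher and 9 lower of 24 tested. Chrm4, the inhibitory muscarinic receptor of direct pathway cells, was higher (1.76 ± 0.08), and Chrm3, an excitatory one, was lower (-2.63 ± 0.11). Cnr1, the cannabinoid receptor that restrains transmitter release, had 391, 425 and 492 CPM in striatum and 132.98, 157.9 and 202.8 CPM in cortex (1.38 ± 0.07). Adora1, the inhibitory adenosine receptor, had 146.6, 163.3 and 197.0 CPM in striatum and 197.0, 226.7 and 263.5 CPM in cortex (-0.46 ± 0.05). Its ranges met at their ends without overlapping. Per length, Adora1 was the highest of this group in cortex (44.8 FPKM) and Adora2a in striatum.

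Glutamate receptor genes had 10 higher and 11 lower of 23 tested. Grm2, a presynaptic metabotropic receptor, had 0.853, 1.18 and 1.75 CPM in striatum and 30.9, 36.8 and 43.6 CPM in cortex (-4.92 ± 0.11, edgeR adjusted p = 1.29e-19). Grm4 and Grm5 were higher, at 1.62 ± 0.09 and 0.95 ± 0.06, and so was the kainate receptor subunit Grik2, at 1.45 ± 0.06. Grin2a, an NMDA receptor subunit, was lower (-1.83 ± 0.20). Grin1, the obligatory NMDA receptor subunit, had 354, 398 and 460.5 CPM in striatum and 303.5, 394 and 449 CPM in cortex and was not called (0.06 ± 0.06, edgeR adjusted p = 0.326). Gria2 differed little (-0.12 ± 0.05).

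GABA receptor genes had 8 higher and 7 lower of 17 tested. Gabrd and Gabra4, subunits of extrasynaptic receptors, were higher, at 1.10 ± 0.05 and 0.75 ± 0.04. The subunit Gabra3 was lower, at -1.84 ± 0.06. The 2 subunits of the GABA-B receptor parted. Gabbr2 had 59.5, 71 and 77.6 CPM in striatum and 287, 315 and 403.2 CPM in cortex (-2.24 ± 0.05, edgeR adjusted p = 5.27e-19), while Gabbr1 had 749.5, 777.6 and 793.4 CPM in striatum and 617, 661 and 698 CPM in cortex (0.23 ± 0.03).

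Neuropeptide genes were divided, with 7 higher, 13 lower and 4 not called of 24. Promoter windows of 4 of them are shown because the genes take each of these courses while all windows carry the core of the cyclic AMP response element, a sequence bound by CREB family factors. Each runs from 250 bases before to 50 bases after the start of the RefSeq gene (GRCm38.p6), 5′ to 3′ on the gene's strand, with TGACG or its reverse complement CGTCA in capitals.
Tac1, chr6:7554811-7555110, plus strand: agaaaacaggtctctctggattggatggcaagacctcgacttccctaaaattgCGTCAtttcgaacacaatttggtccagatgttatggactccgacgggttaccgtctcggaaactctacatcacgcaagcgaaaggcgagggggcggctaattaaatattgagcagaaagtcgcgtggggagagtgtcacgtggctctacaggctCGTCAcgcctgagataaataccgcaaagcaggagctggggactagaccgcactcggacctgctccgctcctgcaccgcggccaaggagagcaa
Sst, chr16:23890795-23891094, minus strand: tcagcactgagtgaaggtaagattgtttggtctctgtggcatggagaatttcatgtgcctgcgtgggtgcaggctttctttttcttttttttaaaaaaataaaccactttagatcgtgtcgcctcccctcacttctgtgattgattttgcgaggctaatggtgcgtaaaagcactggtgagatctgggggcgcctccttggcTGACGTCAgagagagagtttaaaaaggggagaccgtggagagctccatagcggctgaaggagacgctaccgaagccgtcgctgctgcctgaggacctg
Vip, chr10:5638968-5639267, plus strand: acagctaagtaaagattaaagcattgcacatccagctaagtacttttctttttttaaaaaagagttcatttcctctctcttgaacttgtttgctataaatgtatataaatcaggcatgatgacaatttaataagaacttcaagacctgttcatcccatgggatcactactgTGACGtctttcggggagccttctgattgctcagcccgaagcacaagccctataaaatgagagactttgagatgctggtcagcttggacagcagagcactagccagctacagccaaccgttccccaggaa
Cck, chr9:121495645-121495944, minus strand: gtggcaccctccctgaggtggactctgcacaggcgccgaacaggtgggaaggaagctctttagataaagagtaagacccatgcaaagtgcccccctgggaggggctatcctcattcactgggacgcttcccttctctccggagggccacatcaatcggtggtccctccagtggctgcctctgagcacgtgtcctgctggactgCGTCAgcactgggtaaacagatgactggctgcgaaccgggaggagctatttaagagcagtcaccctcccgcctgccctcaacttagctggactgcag
Tac1 and Sst hold 2 matches each, those of Sst overlapping to form the full palindrome, and Vip and Cck hold 1 each. Of all 32851 RefSeq windows of this length, 20.8% hold a match on either strand, and of the windows of genes tested 28.4% do. The share was 18.2% for windows of genes more than 2-fold higher in striatum and 20.4% for those more than 2-fold lower. Of 24 listed neuropeptide genes 18 had a window, and of the 26 windows of these 18 genes 13 (50.0%) held a match. By gene, 12 of the 18 held a match in a window. Some genes, such as Bdnf, have several windows, and Penk was not among the 18. A match is a description of the letters and not a measured site.

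Of 24 listed neuropeptide genes 7 were higher in striatum and 13 lower. The 4 not called were Sst, Tac2, Vgf and Pomc. Besides Penk, Pdyn and Tac1, the higher ones were Trh (1.66), Scg2 (0.67), Nts (1.57, and 2.79 without the 3 cortex libraries) and Gal (2.15, and 2.97 without the 3). Of the genes with windows shown, Tac1 was higher, as given above. Vip, the vasoactive intestinal peptide of cortical interneurons, had 0.750, 0.836 and 1.88 CPM in striatum and 39.1, 45.5 and 54 CPM in cortex (-5.50 ± 0.11, edgeR adjusted p = 1.16e-19). Cck, the cholecystokinin precursor, had 2.89, 4.11 and 5.95 CPM in striatum and 112.9, 140.1 and 178.0 CPM in cortex (-5.10 ± 0.12). Neither overlapped. Sst, the somatostatin precursor, overlapped widely, with 75.9, 92.9 and 148.2 CPM in striatum and 92.3, 110.3 and 147.5 CPM in cortex, and was not called (-0.22 ± 0.10, edgeR adjusted p = 0.0568). Without specimen 12, whose striatum library had the highest value, and its paired cortex library, it was called (-0.32, edgeR adjusted p = 0.000435), and so it was without pair 36 (-0.26, edgeR adjusted p = 0.0449). Sst was also called lower by DESeq2 (adjusted p = 0.0308), with edgeR on RLE factors (adjusted p = 0.0475), on library totals (adjusted p = 0.0103) and with the library number as a covariate (adjusted p = 0.0226). With limma on log2 FPKM the adjusted p was 0.0079 to 0.014, so that the call of Sst depended on the method. Adcyap1, the PACAP precursor, and Bdnf, a neurotrophin that cortical neurons deliver to the striatum, were lower, at -5.29 ± 0.20 and -5.26 ± 0.17. Cort, the cortistatin precursor, was lower at -4.35 ± 0.29 and Npy lower at -0.59 ± 0.10. Per length, Cck averaged 5.81 FPKM in striatum and 209 FPKM in cortex, the highest neuropeptide level in cortex.

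Glutamatergic identity genes of cortex were lower in striatum in 22 of 24 cases, with a median log2 fold change of -3.46. Tbr1, a transcription factor of deep projection neurons, had 1.09, 1.46 and 2.15 CPM in striatum and 117.3, 130.3 and 146.2 CPM in cortex (-6.35 ± 0.09). Its adjusted p of 1.06e-21 was the smallest in the edgeR comparison. Neurod6 and Neurod2, transcription factors of these neurons, were lower at -6.45 ± 0.15 and -6.61 ± 0.14, and Slc30a3, the vesicular zinc transporter, at -6.27 ± 0.29. Each of these had no overlap between regions. Camk2a, the calcium and calmodulin kinase of excitatory synapses that spiny neurons also express, had 1475, 1561 and 1811 CPM in striatum and 2564, 3066 and 3373 CPM in cortex (-0.92 ± 0.05). Rtn4r, the Nogo receptor, and Nrn1, neuritin, were lower at -4.99 ± 0.10 and -5.72 ± 0.11. Tiam2, a Rac exchange factor, was higher (0.78 ± 0.06), and Kcnip3 was not called (-0.01).

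Genes known for cortical layers were not uniformly lower in striatum. Of 15 upper layer genes 10 were lower and 5 higher, and of 21 deep layer genes 11 were lower and 7 higher. Among upper layer genes, Cux2 had 10.3, 14.2 and 17 CPM in striatum and 93.5, 107.04 and 118.4 CPM in cortex (-2.90 ± 0.06). Rasgrf2, a Ras exchange factor, and Rorb, a nuclear receptor of layer 4, were lower at -2.36 ± 0.10 and -1.33 ± 0.09. Calb1 and Wfs1, which spiny neurons also express, were higher at 0.79 ± 0.06 and 0.83 ± 0.12. Among deep layer genes, Fezf2, which specifies subcerebral projection neurons, was lower (-3.43 ± 0.11). Syt6, a synaptotagmin, had 131.5, 157.9 and 181.2 CPM in striatum and 15.2, 21.2 and 43.2 CPM in cortex (2.76 ± 0.16). Foxp2, a transcription factor of spiny neurons and corticothalamic cells, and Pcp4, a calmodulin regulator, were higher at 2.30 ± 0.10 and 2.31 ± 0.09. Pcp4 averaged 1282 FPKM in striatum and 271 FPKM in cortex.

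GABAergic identity genes had 8 higher and 4 lower of 14 tested. Gad1, which makes GABA, had 680.5, 739.8 and 787.8 CPM in striatum and 333, 364 and 451 CPM in cortex (0.96 ± 0.05). Gad2 and the vesicular GABA transporter Slc32a1 were higher by more, at 1.47 ± 0.11 and 1.68 ± 0.11. The homeobox genes of the ventral forebrain differed from one another. Dlx6 had 38.5, 41.8 and 47.1 CPM in striatum and 3.67, 4.18 and 8.45 CPM in cortex (3.13 ± 0.14), and Dlx5 was higher at 2.11 ± 0.14. Dlx6os1, of the same list, is by its name transcribed opposite Dlx6. Without the strand setting, the value of Dlx6 may include its reads. Dlx1 had 13.7, 17.5 and 22.7 CPM in striatum and 31, 34.4 and 40.3 CPM in cortex (-1.02 ± 0.08), with no overlap in either direction. Six3, a homeobox gene of indirect pathway cells, was higher at 5.27 (7.46 without the 3 cortex libraries), and Sp9 at 2.30 ± 0.13.

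Interneuron genes went both ways, 8 higher and 10 lower of 21. Besides Vip, Cck and Cort, lower members were Crh (-1.37) and Htr3a, which mark cortical interneuron types. Nos1 and Chodl, which mark nitric oxide producing cells, were higher at 0.79 ± 0.10 and 1.45 ± 0.14. Npy and Sst of the same list did not follow them, with Npy lower and Sst not called, as given above. Pthlh and Th were higher at 1.41 ± 0.12 and 1.58 ± 0.29. Pvalb, the parvalbumin of fast-spiking cells, had 38.2, 49.4 and 67 CPM in striatum and 44.8, 55.9 and 79.1 CPM in cortex. It was not called (-0.21 ± 0.10, edgeR adjusted p = 0.0782) and was called without the 3 cortex libraries (-0.32, edgeR adjusted p = 0.00653).

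Cholinergic genes were higher in striatum in 6 of 8 cases, with a median of 3.54 (4.82 without the 3 cortex libraries). Chat had 28.1, 31 and 36.6 CPM in striatum and 0.202, 0.272 and 4.87 CPM in cortex (4.72 ± 0.57, and 6.99 without the 3). Slc5a7, the choline transporter, was higher at 4.14 (5.59 without the 3). Lhx8, a transcription factor of cholinergic and pallidal cells, was higher at 3.97 (8.69 without the 3). Slc18a3 was not analysed here. The summed list was 156.1 to 180.5 CPM in striatum, 20 to 41 CPM in the 3 cortex libraries and 7.88 to 16.4 CPM in the other 7.

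Retinoic acid genes held 12 higher and 3 lower of 17 tested. The receptors Rarb and Rxrg were higher at 3.62 ± 0.19 and 4.59 ± 0.29, and Rxrg had 5.20 without the 3 cortex libraries. Rarb had 113.4, 125.2 and 152.5 CPM in striatum and 7.18, 8.34 and 19 CPM in cortex. Rara had 2.68, 3.72 and 4.80 CPM in striatum and 6.68, 8.38 and 9.41 CPM in cortex (-1.14 ± 0.08). Crabp1, a binding protein of retinoic acid, was higher (3.66 ± 0.22). Of the enzymes that make retinoic acid, Aldh1a1 was higher (0.49 ± 0.07), and Aldh1a2 and Aldh1a3 were lower (-1.27 ± 0.21 and -2.46 ± 0.20).

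Immediate early genes, which neuronal activity induces, had 1 higher, 10 lower and 12 not called of 23. With the specimen number as a block, 4 were higher and 11 lower. Fos had 9.01, 12.4 and 16.6 CPM in striatum and 12.8, 21.7 and 55.6 CPM in cortex (-1.19 ± 0.24). Nr4a2, also a marker of claustrum and deep cortex, had 0.880, 1.47 and 2.76 CPM in striatum and 24.6, 41.6 and 66.8 CPM in cortex (-4.75 ± 0.23). Npas4 was higher (0.34 ± 0.11). Arc was not called (-0.72 ± 0.38, edgeR adjusted p = 0.102), and its cortex libraries ran from 71.8 to 499.6 CPM. It was called without the 3 cortex libraries (-1.03, edgeR adjusted p = 0.0267). Those 3 had 71.8 to 99.7 CPM of Arc, and their paired striatum libraries were kept. Arc fell with the specimen number in both regions (Spearman's rho = -0.79 in striatum and -0.95 in cortex). Leaving the 3 out therefore also changed the balance of numbers between regions. Of 20 clock genes 7 were higher and 5 lower, against 33.3% and 31.7% of all genes. Dbp, a clock output factor, had 122.4, 146.9 and 165.2 CPM in striatum and 50.7, 64.6 and 71.5 CPM in cortex (1.18 ± 0.07). Npas2, the forebrain partner of the clock protein Arntl, was higher at 0.65 ± 0.04, Bhlhe41 higher at 0.84 ± 0.05, and its relative Bhlhe40 lower at -1.17 ± 0.08.

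Oligodendrocyte genes were higher in striatum in 20 of 20 cases, and in all 20 the regions did not overlap. The list median was 1.16, with 17 members past 2-fold. Mbp, the myelin basic protein, had 3989, 4533 and 5043 CPM in striatum and 1409, 1994 and 2474 CPM in cortex (1.24 ± 0.07, edgeR adjusted p = 3.64e-13). Gjb1, the connexin of myelin, and Mobp had the largest differences among those named, at 1.42 ± 0.07 and 1.35 ± 0.08. The sum over the list was 11262 to 13664 CPM in striatum and 3829 to 6648 CPM in cortex. Genes of oligodendrocyte precursors differed less, with 5 higher and 1 lower of 9 and a median of 0.22.

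Microglial genes were higher in 18 of 18 cases, none past 2-fold, with a median of 0.52. Cx3cr1, the fractalkine receptor, had 51.4, 54.4 and 71.4 CPM in striatum and 34.2, 38.2 and 43.1 CPM in cortex (0.58 ± 0.06). Csf1r, the receptor of colony-stimulating factor, was higher at 0.58 ± 0.08. For 3 of the 18 genes the regions did not overlap, a smaller share than the 27.4% of all genes. The summed list just missed overlap, at 634 to 1033 CPM in striatum and 439 to 633 CPM in cortex.

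Astrocyte genes had 8 higher, 7 lower and 6 not called of 21 with a median of -0.04, shares near those over all genes (33.3% higher and 31.7% lower). Agt, the angiotensinogen precursor, had 18.9, 27.3 and 36.9 CPM in striatum and 3.42, 6.16 and 12.5 CPM in cortex (2.05 ± 0.16). Slc4a4, a bicarbonate transporter, was higher (0.94 ± 0.07). Lhx2 and Chrdl1, which mark cortical astrocytes or progenitors, were lower at -1.19 ± 0.07 and -1.08 ± 0.09. Slc1a2, the main glutamate transporter, was lower by little (-0.25 ± 0.06). Vascular genes had 8 higher, 5 lower and 7 not called of 20, none past 2-fold. With the specimen block they had 11 higher and 4 lower, and without the 3 cortex libraries 5 higher and 4 lower. The lower ones included Lum and Col1a1, genes of fibroblasts of the meninges and vessels, at -0.92 ± 0.15 and -0.73 ± 0.15.

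Markers of tissue that borders the dissected regions were measured beside these. Ependymal genes, from the cells that line the ventricle, were higher in 10 of 11 cases with a median of 1.13, and their sum was 18.5 to 52.1 CPM in striatum and 11.2 to 17.4 CPM in cortex. Choroid plexus genes had 6 higher and 2 lower of 13 with a median of 0.52. Ttr, the transthyretin of choroid plexus, had 15.9, 23.1 and 44 CPM in striatum and 8.33, 17.3 and 29.1 CPM in cortex (0.67 ± 0.25, edgeR adjusted p = 0.0259). Without the 3 cortex libraries it was not called (0.48, edgeR adjusted p = 0.129). Pallidal and septal genes had 7 higher and 3 lower of 12. Nkx2-1 had 4.98 to 7 CPM in striatum and 0.0288 to 0.877 CPM in cortex (4.70 ± 0.35, and 6.05 without the 3). Nkx2-1, Lhx6 and Pvalb of this list are also listed as interneuron genes, and Slc5a7 as a cholinergic gene. The list is therefore not particular to tissue outside the striatum. Gbx1, a homeobox gene of pallidal and cholinergic cells, was higher at 3.31 (5.28 without the 3). Thalamic genes had 5 higher and 5 lower of 12, and hippocampal genes 4 higher and 6 lower of 12. Over all genes the shares were 33.3% higher and 31.7% lower. Of the thalamic genes, 3 were past 2-fold higher and 2 past 2-fold lower. Slc17a6, a glutamate transporter of thalamus that is also listed as a cortical glutamatergic gene, was lower. It had 2.36, 5.91 and 15.1 CPM in striatum and 20.7, 26 and 36 CPM in cortex (-2.15 ± 0.20). Per length, Synpo2 of the thalamic list averaged 5.68 FPKM in striatum and 1.39 FPKM in cortex. Prkcd averaged 9.98 FPKM (SD 6.63) in striatum and 4.69 FPKM in cortex. Claustrum and piriform genes had 4 higher and 5 lower of 11, and 1 of 5 hypothalamic genes, Hdc, was called, as higher (1.01 ± 0.18), against 3 of 5 without the 3 cortex libraries. Of 5 dopamine neuron markers tested 3 were higher and 1 was lower, while Slc6a3, Pitx3, En1, Foxa2 and Lmx1b did not pass the filter on low counts. The part of these neighbouring tissues in the other results was not tested.

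Genes tied to Huntington's disease had 6 higher and 7 lower of 16. Htt had 118.3, 161.3 and 175.4 CPM in striatum and 159.1, 199.4 and 225.2 CPM in cortex, and was lower in all 10 specimen pairs (-0.33 ± 0.07, edgeR adjusted p = 0.000215). The ranges overlapped, and specimen 12 gave the lowest striatum value. Lig1, a DNA ligase gene, was lower at -0.45 ± 0.06. Of 9 kynurenine pathway genes tested, 4 were higher and 1 lower. Besides Ido1, the aminotransferases Kyat3 and Kyat1 were higher, at 0.87 ± 0.06 and 0.43 ± 0.06, and Afmid, the second enzyme of the pathway, was lower at -0.52 ± 0.15. Kmo, the target of the drug used elsewhere in the series, was near the filter limit, at 0.0625 to 0.491 CPM in striatum and 0.0517 to 0.285 CPM in cortex, and was not called (0.82 ± 0.36, edgeR adjusted p = 0.0504). Kynu, Haao, Aadat and Acmsd did not pass the filter.

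In 4043 genes the striatum was higher in all 10 pairs and in 4124 it was lower in all 10. With the pair as a block, 12055 genes were called, 6231 higher and 5824 lower. Library names also carry a tag of L and a number, which the labels do not explain. With the 8 striatum and 7 cortex libraries whose tag occurred in both regions, 10120 genes were called, 5153 higher and 4967 lower.

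The CHDI-00340246 libraries gave the regional difference again in other mice. Of 17266 genes tested there, 5791 were higher (33.5%) and 5557 lower (32.2%), 65.7% in all. Of 17059 genes tested in both sets, 10120 were called in the same direction in both, which is 89.9% of the calls under CHDI-00340246 and 90.9% of those under vehicle. The number called in opposite directions was 1. Past 2-fold the 2 sets shared 2162 genes, 89.4% of those under CHDI-00340246 and 90.2% of those under vehicle, with 0 in opposite directions. Here too 2 cortex libraries, of pairs 11 and 39, had more Drd2, at 3.47 and 5.95 CPM, than the other 8, at 0.430 to 1.30 CPM. Chat was 1.37 CPM in pair 39 and 0.340 CPM in pair 11, against 0.311 to 0.514 CPM in the other 8. Without these 2 libraries 11004 genes were called, 5698 higher and 5306 lower.

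Some markers had different values in the 2 sets of libraries, without a call in the test of the difference. Choroid plexus genes had 1 higher and 7 lower under CHDI-00340246, with a median of -1.47, against 6 higher and 2 lower under vehicle, with a median of 0.52. Ttr had a log2 fold change of -2.37 ± 0.88 under CHDI-00340246 and 0.67 ± 0.25 under vehicle, and its interaction was not called (-3.03, edgeR adjusted p = 1.0). Chat had 5.87 under CHDI-00340246 and 4.72 under vehicle, and Lhx8 had 6.41 under CHDI-00340246 and 3.97 under vehicle. With the cortex libraries that stood apart left out of both sets, Chat had 6.11 under CHDI-00340246 and 6.99 under vehicle, and Lhx8 8.35 and 8.69, so that the order of the sets turned. Ttr then had -1.09 under CHDI-00340246 and 0.48 under vehicle. A test of the difference itself, the interaction of region and treatment over 40 libraries, called 0 of 17670 genes (0.0%) by edgeR and by DESeq2, with 349 at an unadjusted p under 0.05, and 0 by edgeR without the 5 cortex libraries that stood apart. Among the smallest p were those of Gm16278, a predicted gene, and Crocc2, a rootletin-like gene, each with an edgeR adjusted p of 1.0.

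**Figure D5:**
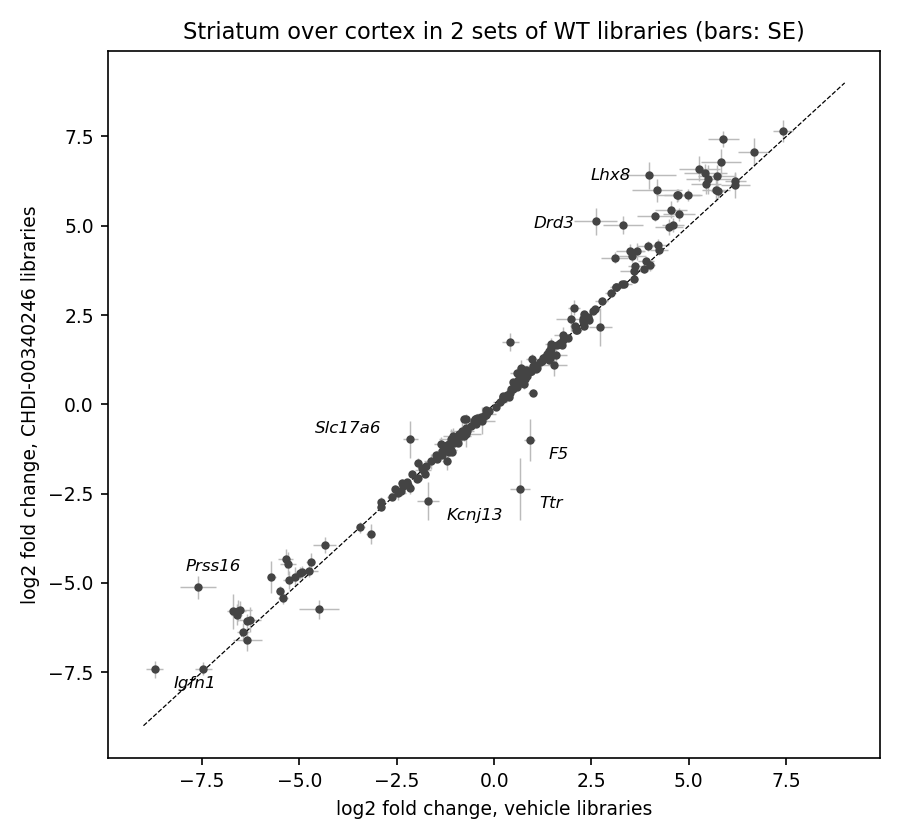
Log2 fold change of striatum over cortex in WT mice given CHDI-00340246 (vertical axis) and given vehicle (horizontal axis) for the genes of the naming rule and those added to it; bars are SE and the dashed line marks equal values. Most genes lie near the line, while Lhx8 (6.41 and 3.97) lies above it and Ttr (-2.37 and 0.67) below it, and without the cortex libraries that stood apart Lhx8 had 8.35 and 8.69.

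No dependence of the regional difference on sex was called. The interaction of region and sex called 0 of 17193 genes (0.0%) by edgeR, with 599 at an unadjusted p under 0.05. The smallest p was that of Nrn1, whose striatum over cortex log2 fold change was more negative in females than in males (interaction -1.14, edgeR adjusted p = 0.222). DESeq2 called this gene (adjusted p = 3.95e-05), and so did edgeR with the specimen block (adjusted p = 0.00516). Tsix, which is transcribed opposite Xist and cannot be told apart from it without strand, and Pam16 followed.

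Dependence on genotype was called widely. The interaction of region and genotype over 40 vehicle libraries called 4285 of 17754 genes (24.1%), 1946 with a more positive and 2339 with a more negative log2 fold change in R6/2 mice. The balance turned with RLE factors (2247 more positive and 2074 more negative) and with DESeq2 (2353 and 2201), and with the specimen block 5469 genes were called (2458 and 3011). This comparison shares the 20 WT libraries described above. The smallest p belonged to Cnr1, which was lower in striatum in R6/2 mice (-0.37 ± 0.06) and higher in WT mice (1.38 ± 0.07). Pak1, a kinase of the cytoskeleton, had -0.80 ± 0.03 in R6/2 mice and -1.76 ± 0.04 in WT mice, and Calcoco1, a coiled-coil coactivator, had 0.12 ± 0.03 and 0.85 ± 0.04. Among identity genes, Pde10a had 2.36 ± 0.10 in R6/2 mice and 4.22 ± 0.27 in WT mice, and Adcy5 had 1.42 ± 0.06 and 3.13 ± 0.15. Lamp5, an upper layer gene, was higher in striatum in R6/2 mice (0.83 ± 0.09) and lower in WT mice (-1.14 ± 0.08). The interaction of Ppp1r1b was not called (-0.23 ± 0.27, edgeR adjusted p = 0.600), nor was that of Penk (-0.77 ± 0.40, edgeR adjusted p = 0.172). These 2 calls depended on the 3 WT cortex libraries that stood apart. Without them the interaction was -0.68 ± 0.20 for Ppp1r1b (edgeR adjusted p = 0.0135) and -1.53 ± 0.29 for Penk (edgeR adjusted p = 0.00015), and 4375 genes were called in all (1939 more positive and 2436 more negative). Cortex libraries of R6/2 mice, all kept in both fits, had 0.404, 2.80 and 4.24 CPM of Drd2 (lowest, median and highest of 10), so that leaving out high libraries from WT cortex alone treats the genotypes unequally.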

How the data were processed

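The authors deposited estimated counts per gene and FPKM values, which are scaled to gene length and library size, for 39179 genes, with Ensembl identifiers, of which 37693 received a GENCODE M21 symbol. Per the labels, the libraries were made from total RNA isolated by miRNeasy and read on an Illumina platform. The processing notes of the submitters name CASAVA 1.8.2. What aligner, counting program, strand setting and genome build were used is not given in the sources used here. Of the deposited count values above 0 in the 20 libraries, 67.0% were whole, and all were rounded. Only 13 of 160 FPKM columns followed the count column of the same header, so FPKM columns were used by group, for levels per length and as an alternative unit.

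Counts were fitted with edgeR 4.0.16 (R 4.3.3; TMM, filterByExpr, robust quasi-likelihood) with 4 means of tissue and sex, and p-values were adjusted by Benjamini-Hochberg over all genes tested. Past 2-fold means called with a log2 fold change of at least 1 in size. The fit was also run on simulated data with known differences, independent libraries and the same spread for every gene. That simulation held no pairing and no libraries that stood apart, so it does not cover these features of the data. Fold changes are those of the fit, and CPM are TMM-scaled. Genes are named by a rule: the 12 largest differences in each direction with at least 1 CPM, a list of 32 identity genes, up to 4 called members of 35 gene lists by smallest p, the most abundant members of receptor and signalling lists, and 3 genes per interaction. Some genes that the rule picks are not reported here. Further genes were named after their values were seen, among them Six3, Dlx1, Syt6, Foxp2, Scn4b, Adcy1, Gbx1, Lhx8, Drd3, Drd5, Adcy8, Itpr1, Kcnip3, Grik3, Lingo2, Eya1, Tiam2, Bcl11b, Calb1, Wfs1, Pvalb, Fos, Arc, Npas4, Ttr, Nos1, Chodl, Pthlh, Crh, Npy, Adcyap1, Gad2, Slc32a1, Gabra4, Grin2a, Gnb5, Htr1d, Plxdc1, Slc1a2, Aldh1a2 and Aldh1a3. The members, the lists and the rule were chosen with earlier results of these data known.

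The labels do not state which specimens share an animal, and the p-values rest on the spread between specimens, which may be partly technical. Cortex numbers exceed striatum numbers by 80 where genotype, treatment and sex agree. Over the 10 pairs so formed, deviations from the group means correlated at 0.14 to 0.55, and 9 of 10 libraries correlated best with their own number, so that the numbers were taken to pair the samples. The main fit did not use this pairing. Its p-values and SE treat the libraries as unpaired, and fits with the pair as a block are given as alternatives. Alternatives were DESeq2 1.42.0, RLE factors, library totals, no filter, blocks, library tags, limma 3.58.1 on log2 FPKM, and leaving out each pair. Leaving out cortex libraries was chosen after seeing the data.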

Additional observations from a re-analysis of the deposited data

Results flagged for a closer look

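Among 338 sets of one named gene in one region's 10 libraries, 27 (7.99%) had a library separated from the rest by a wide gap. The limit flags about 1 in 20 when values are normally spread and sets are independent. These sets share their libraries, so 7.99% is not a test of an excess. Specimen 12 accounted for many of them. Its striatum library had the highest Penk (2005 CPM), Prkar1b (364 CPM), Sst (148.2 CPM), Lamp5 (121.5 CPM), Gpr6 (96.2 CPM), Rgs10 (52.8 CPM), Foxj1 (13.7 CPM), Rarres2 (10.0 CPM) and Htr3a (1.65 CPM). The same library had the lowest Slc4a4 (249 CPM), Htt (118.3 CPM), Nectin3 (11.2 CPM) and Rgs6 (7.49 CPM). In striatum, specimen 8 had the lowest Htr2c (45.5 CPM) and Crocc2 (0.157 CPM) and the highest Ier2 (2.80 CPM). Specimen 32 had the highest Adora1 (197.0 CPM), the lowest Bdnf (0.351 CPM) and the single count of Prss16 (0.0251 CPM), and specimen 24 the lowest Rtn4r (0.895 CPM). In cortex, the lowest values set apart were Pak1 (415 CPM) in pair 8, Aldh1a1 (25.4 CPM) in pair 16, Rgs6 (15 CPM) in pair 12, Rarres2 (1.71 CPM) and Kcnj13 (0.517 CPM) in pair 20, and Hdc (0.513 CPM) in pair 36. The highest one was Th (5.55 CPM) in pair 32.

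The striatum over cortex difference depended on genotype in 4285 genes by the interaction test. Of 30 identity genes described here, 14 were among them, against 24.1% of all genes tested, with the interaction given as the log2 fold change in R6/2 mice minus that in WT mice. It was negative for Pde10a (-1.88), Adcy5 (-1.73), Rgs9 (-1.40), Drd1 (-1.02), Foxp1 (-0.53) and Gnal (-0.38), all spiny neuron genes. It was positive for Lamp5 (1.96), Cux2 (0.89), Tbr1 (0.80) and Camk2a (0.25), genes of cortical neurons. It was also positive for Pdyn (0.74), a direct pathway gene, and for Sst (0.80), Vip (0.67) and Gad1 (0.40). Of the other spiny neuron and pathway genes, Adora2a (-1.21), Drd2 (-1.18), Isl1 (-1.13), Penk (-0.77), Ppp1r1b (-0.23), Gpr6 (-0.17) and Tac1 (0.17) were not called. Nor were the cortical genes Slc17a7 (0.59), Neurod6 (0.22), Rorb (0.05) and Fezf2 (-0.04). Without the 3 WT cortex libraries that stood apart 22 of the 30 were called, against 4375 of 18013 genes tested. Drd1 was then at -1.67 and Rgs9 at -2.39. The 8 added were Adora2a (-2.88), Chat (-3.95), Dlx6 (-0.46), Drd2 (-2.95), Gpr6 (-1.04), Isl1 (-4.25), Penk (-1.53) and Ppp1r1b (-0.68). All R6/2 cortex libraries were kept in that fit, with medians of 2.80 CPM for Drd2 and 1.28 CPM for Chat. The WT cortex libraries left in had 0.541 to 1.43 CPM of Drd2 and 0.202 to 0.275 CPM of Chat. That fit therefore treats the genotypes unequally, and the part of this in the added calls was not tested.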

How the results depend on the processing

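The count of called genes was 10689 to 11282 with each specimen pair left out, against 11180 in full, and the count past 2-fold was 2402 to 2517, against 2437. Under CHDI-00340246 the range was 10814 to 11202, against 11348. With library totals in place of TMM, 41.6% of calls were higher in striatum, against 51.2%. Past 2-fold, log2(FPKM + 1) gave 1073 genes (422 higher and 651 lower), 1075 without a filter, and a 4-fold limit 808 (342 higher and 466 lower). A pseudocount of 1 shrinks the fold change of low genes. The replicate block by specimen number gave 12055 calls and 2431 past 2-fold. The replicate block by the replicate number of the sample titles gave 10778. The interaction of region and sex had 1 call with DESeq2, 1 with the specimen block and 0 to 1 with a pair left out, all of them Nrn1, and the cause was not tested. Of 214 called named genes, 204 had the same call in every alternative run. Grin1, not called at 0.06, was -0.03 by FPKM with a pseudocount of 1 or 0.1, also without a filter, and -0.01 by library totals. Without pair 28, whose cortex library stood apart, the log2 fold change of Lhx8 was 6.48 and of Isl1 5.91. Kmo, at most 0.491 CPM in a library, was called in 6 alternatives, for example without pair 16 (1.04).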

Other observations

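Some genes named for blood cells were among the largest striatal differences, while Ptprc was not called. Ptprc, which encodes CD45 and marks leukocytes including microglia, had 2.83, 4 and 9.06 CPM in striatum and 2.68, 3.52 and 7.60 CPM in cortex (0.15 ± 0.19, edgeR adjusted p = 0.508). Cd4, in contrast, had no striatum library below 95.6 CPM and no cortex library above 3.64 CPM. Ptprc was chosen after its values were seen. Of the 18 microglial genes described above, all were called higher, with a median of 0.52. Which cells the reads of Cd4 and Ptprc came from was not tested.

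Levels of some activity-induced genes correlated over the specimen pairs, and they also followed the order of the specimen numbers in both regions. Over the 10 pairs, log2(CPM) of 11 of 23 immediate early genes had a Benjamini-Hochberg adjusted permutation p under 0.05 by Pearson's r (two-sided, adjusted over these 23 relations), and 12 did not. All 23 had a positive r, with a median of 0.60, against 78.6% of all genes and a median of 0.34. An r of at least 0.8 was found for 10 of the 23 and for 7.19% of all genes. Fosl2 had r = 0.95 and Spearman's rho = 0.95 (permutation adjusted p = 0.00023 and 0.00069), and r = 0.93 without the 2 pairs farthest from the median. Nr4a1 had r = 0.93 and rho = 0.95 (permutation adjusted p = 0.0012 and 0.00084), and r = 0.85 without those 2. Arc had r = 0.85 and rho = 0.81 (permutation adjusted p = 0.0070 and 0.020), with 74 to 177.0 CPM in striatum and 71.8 to 499.6 CPM in cortex, and r = 0.66 without those 2. Egr2 rested on 2 pairs, with r = 0.77 over all and 0.17 without them, and Fos had r = 0.44 (permutation adjusted p = 0.28). Without the 2 farthest pairs, r was at or below 0 for 4 genes, Fos, Junb, Ier2 and Nr4a2. The permutation p treats the pairs as exchangeable, while all 11 genes past the adjusted p had lower levels at higher specimen numbers in both regions, with rho = -0.96 in striatum and -0.95 in cortex for Nr4a1. After a straight line in the number was taken out of each region, r over the 10 pairs was 0.29 to 0.90 for these 11, 0.34 for Nr4a1, 0.39 for Arc and 0.81 for Fosl2, with a median of 0.40 over the 23 and of 0.31 over all genes. The labels do not say what the order of the numbers stands for. The part of that order in the correlations between regions was not tested further.

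The 3 cortex libraries that stood apart pair with striatum specimens 24, 28 and 32. Those striatum libraries had the highest Ttr, at 39.3, 44 and 38 CPM, against 15.9 to 28.5 CPM in the other 7 striatum libraries. Ttr was chosen after its values were seen, and other choroid plexus genes did not all follow. Kcnj13 was also highest there, at 0.486 to 0.693 CPM against 0.0786 to 0.329 CPM. F5 was 1.58 CPM in specimen 32 while another striatum library had 2.80 CPM, and Clic6 and Col8a1 were highest in other specimens. A link to the cortex libraries was not tested.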
